A study of Glycine max with 60 samples.

Results

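A set of 45 genes was on in developing seeds of the soybean line 3mlpa and nearly silent in those of its sister line 3MWT, out of 56044 genes counted. Members were chosen from the values themselves. The mean level over the 15 libraries of 3mlpa had to be at least 1 CPM (counts scaled to the library's total) and at least 32 times the mean over the 15 libraries of 3MWT. Of 47 genes that met this, 2 were left out because their annotation named a nucleotide-binding (NBS) resistance protein or a heat shock protein. The annotation tables are the authors' deposited tables of differential expression. Since 8 members are not listed in them, those words could not be looked up for these members. The difference between 3mlpa and 3MWT is therefore the rule and is given as a description, without a test.

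RNA of whole developing seeds was sequenced from 4 lines at 5 stages set by seed length, with 3 libraries for each line and stage, 60 in all. The stages were S1 (2 to 4 mm), S2 (4 to 6 mm), S3 (6 to 8 mm), S4 (8 to 10 mm) and S5 (10 to 12 mm). The low-phytic-acid line 3mlpa carries the 3 mutations mips1, mrp-l and mrp-n. Its sibling 3MWT has normal phytic acid, and both are recombinant inbred lines from a cross of a parent with mrp-l and mrp-n and a parent with mips1. The line 1mlpa carries mips1 alone, and 1MWT is its near-isogenic sibling without it, both from a cross of the cultivar Essex with the same mips1 parent. All 4 lines therefore share that parent, and each genotype is represented by 1 line. The sample titles mark the 3mlpa and 3MWT libraries as re-analyzed and name no batch. The authors state that they used published data and generated new data for 1mlpa and 1MWT. A difference between pairs of lines therefore cannot be told apart from one between the earlier and the new data.

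Phytic acid is the phosphate store of the seed. MIPS1 makes inositol phosphate, the first step of its synthesis, and the MRP proteins are ABC transporters needed for its accumulation. Recombinant inbred lines fix a different mixture of the parents' chromosome segments in each line, so sister lines can differ at many genes besides the ones selected for. A gene that is absent, disrupted or not transcribed in 1 parent can appear as fully on in 1 sister and nearly off in the other. Counts of RNA alone do not separate these forms, and in whole seeds fewer expressing cells cannot be told apart from less RNA per cell.

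Total counts per library ranged from 17359192 to 42800413 with a median of 25314824. A floor of 3 counts over the 15 libraries of 3MWT corresponded to 0.00795 CPM. The seed genes glycinin G1, beta-conglycinin alpha and oleosin were detected in all 20 groups of line and stage, and their means were higher at S5 than at S1 in all lines. Mean levels of the mutated genes over 3mlpa, 3MWT, 1mlpa and 1MWT were 1869, 2026, 1961 and 1906 CPM for MIPS1, 74.3, 61.5, 77.2 and 77.7 CPM for MRP-L, and 57.3, 63.0, 78.4 and 73.1 CPM for MRP-N. These RNA levels do not separate mutant from non-mutant lines, so they are no check of the genotypes.

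The 5 libraries of 3mlpa replicate 3 stood apart. In them 28 genes were on that were nearly silent (a mean at least 32 times lower) in replicates 1 and 2 of the same line. For each of the other 11 sets of line and replicate number there were 0 to 4 such genes. Of these 28 genes, 7 are members: Glyma.02G028400, Glyma.05G218100, Glyma.13G295200, Glyma.16G117900, Glyma.16G118000, Glyma.19G085200 and Glyma.19G138400. None of the 7 is listed in the annotation tables. Glyma.13G295200 was at 0.52, 2.39, 7.94, 13.4 and 32.2 CPM from S1 to S5 in replicate 3, and at 0 to 0.22 CPM in the 10 libraries of replicates 1 and 2. Glyma.16G117900 was at 1.08, 4.96, 7.05, 2.70 and 3.40 CPM in replicate 3, again far above the other 10 libraries. The S5 library of replicate 3 differed further from its sister libraries of the same line and stage. There 93 genes were nearly silent and 61 were on relative to the mean of both sisters. Over the other 59 libraries the median was 5 and 0 and the highest value 86 and 59. In this S5 library 9 members were nearly silent, 6 of them with 0 counts. Glyma.10G175400, whose best match is translation initiation factor 6, a protein of ribosome assembly, was at 12.7, 10.9, 8.19, 6.46 and 0.34 CPM from S1 to S5 in replicate 3. In replicates 1 and 2 it stayed between 11.1 and 13.8 CPM. Results that rest on these libraries are given with and without them below, and the origin of the difference was not tested.

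Without replicate 3 of 3mlpa the rule was met by 37 genes, 35 of them members. The 10 members that did not meet it were the 7 above and Glyma.09G062600, Glyma.13G098600 and Glyma.20G011400. Glyma.13G098600, a match to the actin-bundling protein villin 4, reached 12.8, 19.1, 31.4, 43.3 and 94.0 CPM from S1 to S5 in replicate 3, but 0.893 to 8.49 CPM in the other 10 libraries. All of the 35 members that met the rule without replicate 3 had a mean in replicate 3 within 2-fold of the pooled mean of replicates 1 and 2. Replicates 1 and 2 were not compared with each other in this count.

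**Figure D1:**
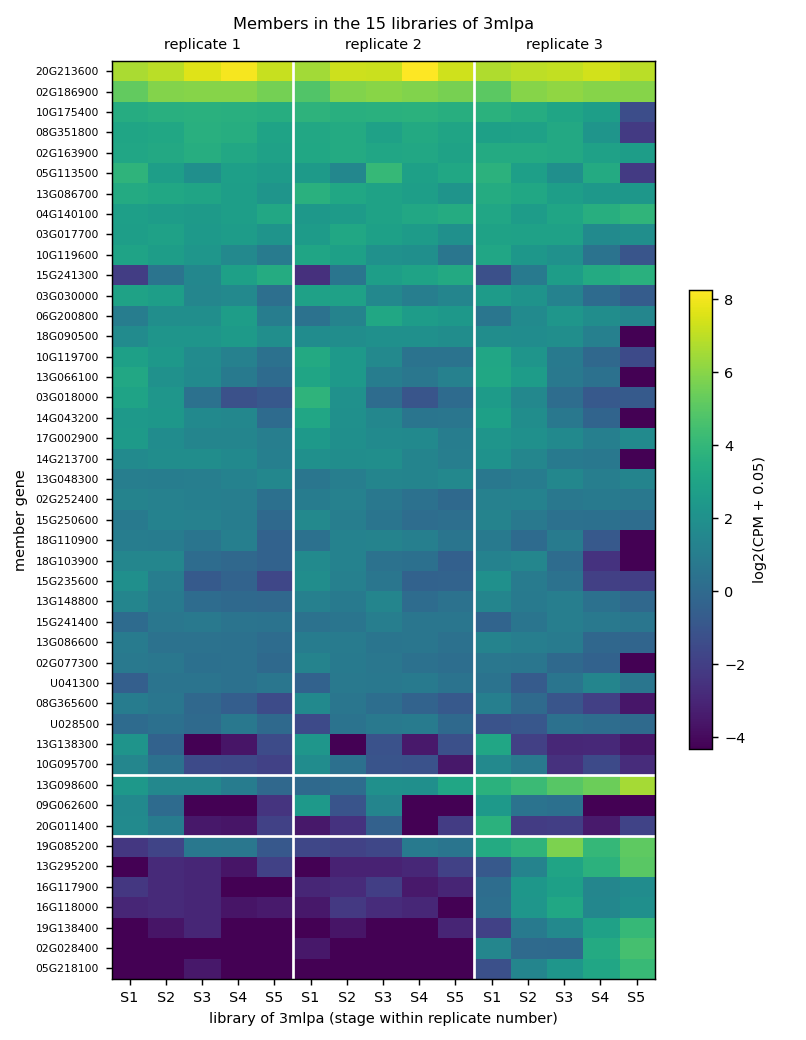
Level of each member (vertical) in the 15 libraries of 3mlpa (horizontal, stages within replicate number), as log2(CPM + 0.05) by colour. White lines separate the 35 members that meet the rule without replicate 3 (top), the 3 others, and the 7 that were on in replicate 3 only (bottom), and the dark cells at S5 of replicate 3 are members at or near 0 in that library.

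Member levels in 3mlpa covered a wide range. Mean levels ran from 1.02 to 156 CPM with a median of 2.74 CPM, and 19 members were under 2 CPM. In 3MWT the highest mean was 1.24 CPM, and 7 members had 0 counts in all 15 libraries. For the other 38 members the ratio of means ran from 32.3 to 916 with a median of 57.9. Summed over all members, each library of 3mlpa held 287 to 479 CPM and each library of 3MWT 3.45 to 10.2 CPM. The highest 3MWT sum was in S1 replicate 2, and without that library 70 genes met the rule, among them all 45 members. The rule picked 0.137% of the 32802 genes with at least 1 CPM in 3mlpa. All libraries of 3mlpa lay above all libraries of 3MWT for 20 members, and for 0.323% of those 32802 genes. The count of members was 32 without 3mlpa replicate 3, against 0.576% of those genes, and also 32 without its S5 library alone, against 0.463%.

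The thresholds fell within a continuous range. Just inside the fold limit were Glyma.03G018000 at 32.3-fold, Glyma.09G062600 at 33.9-fold and Glyma.08G365600 at 34.1-fold. Just outside it were Glyma.08G200100 at 31.0-fold, Glyma.02G170800 at 30.3-fold and Glyma.04G187400 at 29.0-fold. Just inside the level limit were Glyma.10G095700 at 1.02 CPM, Glyma.U028500 at 1.05 CPM and Glyma.08G365600 at 1.06 CPM. Just outside it were Glyma.06G311100 at 0.956 CPM, Glyma.16G202000 at 0.841 CPM and Glyma.11G225500 at 0.835 CPM.

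The lines 1mlpa and 1MWT, which the rule did not use, divided the members into 3 classes. A member was counted as on in a line at a mean of at least 1 CPM, and as nearly silent at no more than 1/32 of its mean in 3mlpa. By this 23 members were on in both lines, 16 were nearly silent in both, and 6 were intermediate in at least 1 of them. No member was on in 1 line and nearly silent in the other. Without replicate 3 of 3mlpa, the 35 members that kept to the rule comprised 19 on in both, 11 nearly silent in both and 5 mixed. All 19 were within 2-fold of their 3mlpa mean in both 1mlpa and 1MWT. The 4 members that were on in both but over 2-fold away from 3mlpa were Glyma.13G295200, Glyma.16G117900, Glyma.16G118000 and Glyma.19G138400, all of the kind that was on in replicate 3 only.

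**Figure D2:**
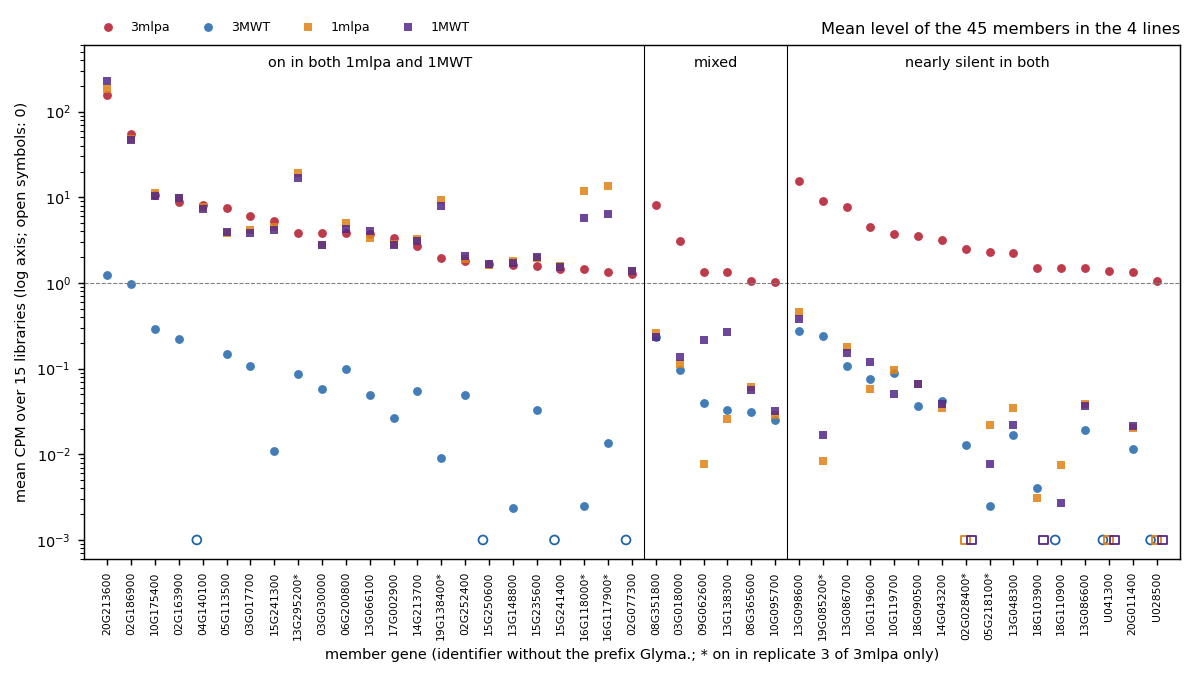
Mean CPM over 15 libraries of each of the 45 members (horizontal) in the 4 lines, on a log axis with means of 0 drawn as open symbols at the bottom. In the left panel 1mlpa and 1MWT lie near 3mlpa and 3MWT stands alone at the bottom, and in the right panel 1mlpa and 1MWT lie with 3MWT.

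Among the 23 members on in 3 of the 4 lines, the most abundant was Glyma.20G213600, a match to isoflavone 7-O-methyltransferase, an enzyme that methylates isoflavones. Its lowest, median and highest library were at 91.1, 144 and 301 CPM in 3mlpa, 133, 188 and 238 CPM in 1mlpa and 107, 234 and 325 CPM in 1MWT. In 3MWT no library exceeded 2.98 CPM. Over all stages the ranges of 3mlpa, 1mlpa and 1MWT overlapped widely, and every library of 3MWT lay below all of theirs. At S1 and at S2, however, every library of 3mlpa lay below every library of 1mlpa and 1MWT of the same stage. With a mean of 99.4 RPKM (reads scaled to gene length and library total) in 3mlpa it was also the highest member per unit of length.

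Second per length, at 69.9 RPKM in 3mlpa, was Glyma.02G186900, an EF-hand protein of the calcium-binding kind. Its lowest, median and highest library were at 28.4, 59.5 and 71.6 CPM in 3mlpa, 22.6, 54.9 and 58.6 CPM in 1mlpa and 27.3, 47.6 and 70.9 CPM in 1MWT, against at most 1.53 CPM in 3MWT. The 3 expressing lines overlapped over most of their ranges. Glyma.02G163900, a match to the urease accessory protein UreD, which helps insert nickel into urease, ran from 6.30 to 11.2 CPM with a median of 9.13 CPM in 3mlpa. It was at 7.96 to 12.0 CPM in 1mlpa and 7.40 to 12.6 CPM in 1MWT, and at 0.573 CPM or less in 3MWT. Glyma.10G175400 (initiation factor 6), Glyma.05G113500 (no annotation match) and the SWEET17-like sugar transporter Glyma.06G200800 were also far lower in 3MWT. The order of the 3 expressing lines varied between them. In Arabidopsis SWEET17 moves fructose across the vacuole membrane. Means over 3mlpa, 3MWT, 1mlpa and 1MWT were 10.7, 0.292, 11.2 and 10.4 CPM for Glyma.10G175400, 7.53, 0.147, 3.80 and 3.89 CPM for Glyma.05G113500, and 3.79, 0.0992, 5.07 and 4.25 CPM for Glyma.06G200800.

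Members with no counts at all in 3MWT included Glyma.04G140100, a match to SAUL1, which in Arabidopsis is a U-box ubiquitin ligase that restrains premature senescence. It ranged from 5.05 to 14.7 CPM with a median of 7.57 CPM in 3mlpa, from 5.60 to 11.5 CPM in 1mlpa and from 4.90 to 11.2 CPM in 1MWT. Against the floor of 3 counts over the 15 libraries of 3MWT, its mean of 8.11 CPM in 3mlpa was at least 1020-fold higher. The other such members were lower. Glyma.15G250600, a match to the thylakoid formation protein THF1, averaged 1.68 CPM in 3mlpa, at least 212-fold higher than the floor. Glyma.18G110900, a match to a soluble inorganic pyrophosphatase, averaged 1.51 CPM (at least 190-fold). Glyma.15G241400, a match to the exocyst subunit EXO70A1, which acts in vesicle tethering, averaged 1.46 CPM (at least 184-fold). Glyma.U041300, a match to the potassium antiporter KEA4, averaged 1.37 CPM (at least 172-fold). Glyma.02G077300 and Glyma.U028500 averaged 1.27 and 1.05 CPM, at least 160-fold and at least 133-fold above the floor. Of these 7, Glyma.U041300 and Glyma.U028500 also had 0 counts in all libraries of 1mlpa and 1MWT and were thus detected in 3mlpa alone, while Glyma.18G110900 was nearly silent in both.

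The members nearly silent outside 3mlpa included several transport and metabolic genes. The highest among those that kept to the rule without replicate 3 was Glyma.13G086700, a match to the plastid dicarboxylate transporter DIT2.1, which exchanges malate with other dicarboxylates. It ranged from 4.43 to 12.6 CPM with a median of 7.54 CPM in 3mlpa, and its means in 3MWT, 1mlpa and 1MWT were 0.107, 0.181 and 0.151 CPM. Glyma.10G119600, a match to the potassium transporter KUP1, ranged from 0.443 to 8.47 CPM in 3mlpa, and its highest library in the other lines was 0.376 CPM. Its lowest 3mlpa library was S5 replicate 3. Glyma.10G119700, a match to the microtubule-associated protein MAP65-6, averaged 3.71 CPM in 3mlpa and 0.0901, 0.0967 and 0.0501 CPM in 3MWT, 1mlpa and 1MWT. Glyma.13G048300, annotated as an aspartokinase, the entry enzyme of aspartate-derived amino acids, had a narrow range of 1.46 to 2.87 CPM in 3mlpa and a highest value of 0.145 CPM elsewhere.

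The mixed members were near the limits. Glyma.08G351800, an oxygenase annotated as like 1-aminocyclopropane-1-carboxylate oxidase, averaged 8.09 CPM in 3mlpa and 0.234, 0.263 and 0.232 CPM in 3MWT, 1mlpa and 1MWT. Its value of 0.17 CPM in 3mlpa S5 replicate 3 was the lowest in that line. The 1MWT means of Glyma.09G062600, a match to the xyloglucan-remodelling enzyme XTH23, and of Glyma.13G138300 came almost wholly from 1 library. That library was 1MWT S3 replicate 1, with 73 and 86 counts, or 3.15 and 3.71 CPM, and the other libraries of that group were at 0 or 1 count.

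The pair of near-isogenic lines asks whether mips1 alone goes with a change of the members. Only the 23 members that were on in both lines can answer it. The other 22 entered the test through 3mlpa, and with the 30 libraries of the pair alone 2 of them passed the filter on low counts. Of the 23, 0 were called over the mean of the 5 stages by edgeR's quasi-likelihood test (a Benjamini-Hochberg adjusted p below 0.01 together with a change of more than 1 in log2), against 0.079% of the 40517 genes tested. At the single stages the count called was also 0, against 0.289%, 0%, 0.00247%, 0.074% and 0% of all genes from S1 to S5. At an unadjusted p under 0.05 there were 3 of the 23 for the mean, against 20.1% of all genes. From S1 to S5 there were 0, 1, 4, 1 and 0 of the 23, against 10.6%, 12.5%, 9.31%, 14.3% and 3.18% of all genes. The DESeq2 Wald test called 0 of the 23 in each, with 1 at an unadjusted p under 0.05 for the mean, against 16.2% of all genes, and 0, 1, 2, 1 and 0 from S1 to S5. Of 52025 genes it called 20 higher and 87 lower for the mean. From S1 to S5 it called 2, 0, 20, 7 and 3 higher and 260, 15, 5, 140 and 4 lower. At an unadjusted p under 0.05 there were 4493, 5300, 3909, 5833 and 1227 of these genes from S1 to S5. The median log2 fold change of the 23 was 0.08, beside 0.00 for all genes. For the 19 members on in both lines that keep to the rule without replicate 3 of 3mlpa, log2 fold changes ran from -0.35 to 0.23 with SEs of 0.07 to 0.31, and the smallest adjusted p was 0.125 for Glyma.20G213600 (-0.22, SE 0.09). A p that misses the threshold does not show equal levels.

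The largest shift among members on in both lines was in the adjacent pair Glyma.16G117900 and Glyma.16G118000, which are not listed in the annotation tables. Glyma.16G117900 had a lowest, median and highest library of 2.98, 14.7 and 26.8 CPM in 1mlpa and 0.444, 5.32 and 16.1 CPM in 1MWT, and Glyma.16G118000 had 2.61, 11.3 and 24.8 CPM against 0.481, 4.57 and 15 CPM. Both members had higher medians in 1mlpa, with overlapping ranges. Their log2 fold changes were 1.11 (SE 0.42, adjusted p 0.115) and 1.06 (adjusted p 0.185), neither called by edgeR. When replicate 3 of 3mlpa, which is outside this pair but enters the shared estimate of the spread, was left out, the same log2 fold changes were called with adjusted p of 0.00237 and 0.00695. No other member was called in that fit, which called 0.177% of all genes. With only the 30 libraries of the pair fitted they were 0.0126 and 0.021 and were not called.

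Levels at the first and the last stage were compared in 3mlpa. On the TMM scale used for the test 25 of the 45 members were called by edgeR, 13 higher and 12 lower at S5 than at S1, against 32.2% of all genes (12.9% higher and 19.3% lower). The median log2 change of members was 0.08, beside -0.05 for all genes. Without replicate 3 the count was 17 of 43 members that could be fitted (10 higher, 7 lower, against 29.7% of all genes), and without S5 replicate 3 it was 15 (7 higher, 8 lower, against 29.8% of all genes). Over any of the 5 stages the F test called 22 members, against 36.4% of all genes, and 14 without replicate 3, against 33.9%. From S1 to S5, 17 of 43 members without replicate 3 was a larger share than that of all genes, a difference that was not tested. All genes also include ones below the 1 CPM that members had to reach in 3mlpa. The 15 of 45 without its S5 library was near that of all genes. In the F test, 14 of 43 without replicate 3 was near it as well. The TMM factors averaged 1.25 to 1.33 at S1 and 0.649 to 0.712 at S5 over the 4 lines. The fitted change was therefore a median of 0.90 higher in log2 than the ratio of CPM, and 6 members, none of them called, differed in direction between both scales.

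A set of 14 members was called in the same direction in all 3 fits, 7 higher and 7 lower. Each fit alone called 29.7% to 32.2% of all genes, and the share of all genes called in all 3 was not counted. The steepest rise was that of Glyma.15G241300, a match to a spermidine hydroxycinnamoyl transferase, which joins phenolic acids to polyamines. In 3mlpa its replicates were at 0.19, 0.116 and 0.372 CPM at S1 and at 10.7, 9.79 and 12.4 CPM at S5, with a log2 change of 6.46 (SE 0.48, adjusted p 2.55e-14). Its groups at S1 and S5 did not overlap, and without replicate 3 the change was 6.92. The other members that rose were Glyma.06G200800 (SWEET17-like, 1.96), Glyma.04G140100 (SAUL1-like, 1.67), Glyma.02G186900 (EF-hand, 1.61), Glyma.13G048300 (aspartokinase, 1.57), Glyma.20G213600 (isoflavone 7-O-methyltransferase, 1.41) and, at the smallest change of the 7, the EXO70A1-like Glyma.15G241400.

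Among the 7 that fell, Glyma.10G119600 (KUP1-like) was at 7.64, 8.40 and 8.47 CPM at S1 and at 1.83, 1.49 and 0.443 CPM at S5, with no overlap, and fell by 1.81 on the log2 scale (SE 0.40). Its neighbour Glyma.10G119700 (MAP65-6-like) was at 6.88, 9.86 and 8.47 CPM at S1 and between 0.306 and 1.30 CPM at S5, and fell by 2.25. The others were Glyma.10G095700 (log2 change -3.75), Glyma.03G018000 (a ribonuclease H-like protein, -2.87), Glyma.15G235600 (beta-galactosidase-like, -2.30), Glyma.14G043200 (-2.19) and Glyma.13G066100 (an AAA-type ATPase, -2.15).

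Several of the largest rises in the fit of all libraries rested on replicate 3. Glyma.19G138400 had a log2 change of 7.06, which was 0.01 without the S5 library of replicate 3 and 3.72 without all of replicate 3, neither called. Glyma.13G295200 had 6.82, which was 1.22 and not called without that S5 library. Glyma.05G218100 had 6.39, which turned to -4.41 without that S5 library. Its replicate 3 rose from 0.372 CPM at S1 to 17.6 CPM at S5, and replicates 1 and 2 had 0 counts at both stages. The -4.41 thus sets 10 counts of replicate 3 at S1 against 0 at S5 and shows no fall. Glyma.13G098600 (villin 4-like) had 3.36, which was 0.49 without that S5 library. Leaving out only that library keeps replicate 3 at S1 but not at S5, so unlike sets of replicates are compared. Among those lower at S5, the changes without replicate 3 were -5.10 for Glyma.09G062600 (-5.87 with it), -2.82 for Glyma.13G138300 (-3.74) and -2.07 for Glyma.20G011400 (-3.70), in the same direction but not called. At S1 Glyma.20G011400 was at 3.19, 0.0385 and 12.9 CPM, so its replicates 1 and 2 differed as well.

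**Figure D3:**
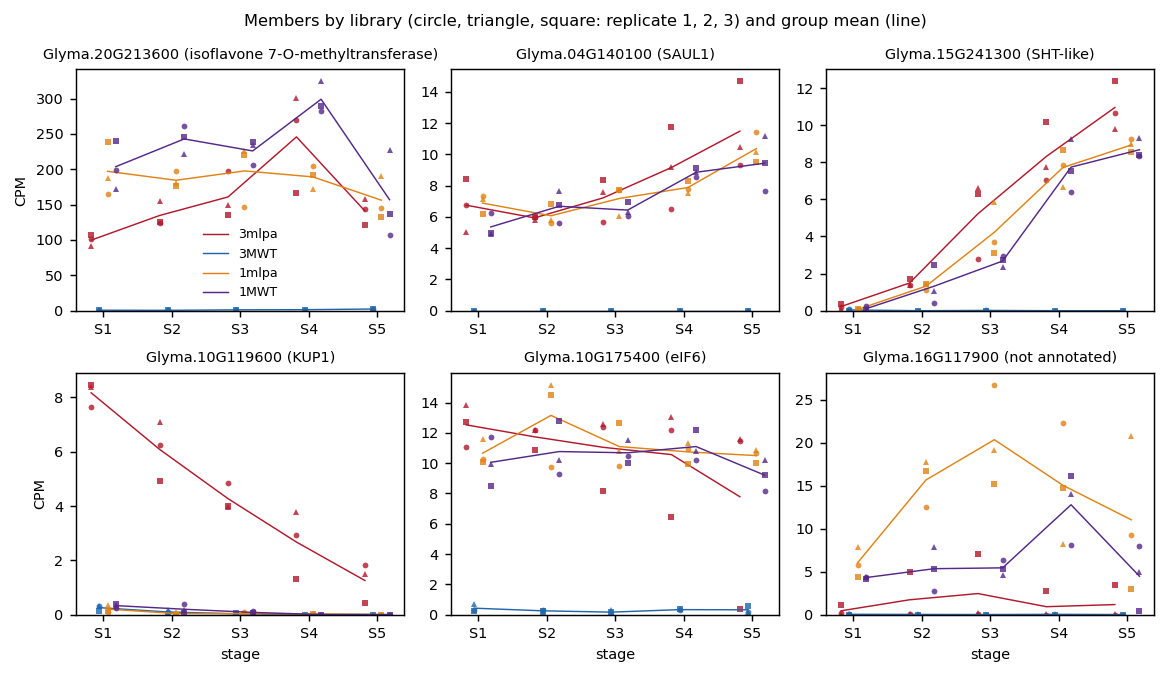
CPM in each library (symbols by replicate number) and group mean (lines) against stage for 6 members in the 4 lines. In the top row 3mlpa, 1mlpa and 1MWT run above 3MWT. There Glyma.20G213600 is lower in 3mlpa than in 1mlpa and 1MWT at S1 and at S2. Below, the KUP1-like member is high in 3mlpa alone, the initiation factor 6 member is near 0 in 3mlpa only in the S5 square of replicate 3, and Glyma.16G117900 is above 1 CPM in 3mlpa only in squares.

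Stage changes in 1mlpa and 1MWT were read for the 23 members that were on in both. Of these, 12 were called in the mean of both lines, 9 higher and 3 lower at S5, against 35.5% of all genes (13.5% higher and 21.9% lower). Glyma.15G241300 rose here too, from 0.0884, 0.0363 and 0.0724 CPM at S1 to 9.27, 8.98 and 8.54 CPM at S5 in 1mlpa, and from 0.25, 0 and 0.0537 CPM to 8.32, 9.31 and 8.40 CPM in 1MWT. No S5 library overlapped an S1 library, and the log2 change over both lines was 7.63 (SE 0.40, adjusted p 1.68e-19). Others that rose were Glyma.13G295200 (5.42), Glyma.19G138400 (5.17), Glyma.05G113500 (3.09), Glyma.06G200800 (2.48), Glyma.15G241400 (2.16), Glyma.02G186900 (1.78), Glyma.04G140100 (1.62) and Glyma.03G017700 (1.39). Glyma.03G030000 fell by 3.08, Glyma.15G235600 fell by 1.96 and Glyma.13G066100 fell by 1.28 on the log2 scale. Of the 14 members called in all 3 fits of 3mlpa, 8 were on in 1mlpa and 1MWT. All 8 had the same direction there on the fitted scale, and 7 were called, with no such count made over all genes. The exception was Glyma.20G213600, which on the CPM scale was lower at S5 than at S1 in 1mlpa (156 against 197 CPM) and 1MWT (157 against 204 CPM) and higher in 3mlpa (141 against 99.8 CPM).

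Whether the stage change differed between 3mlpa and the mean of 1mlpa and 1MWT was tested as an interaction for the same 23 members. It was called for 1 member, Glyma.05G113500, against 0.713% of all genes. In 3mlpa its replicates were at 14.5, 5.70 and 13.5 CPM at S1 and at 5.85, 8.79 and 0.17 CPM at S5. In 1mlpa they were at 1.06, 1.85 and 1.45 CPM at S1 and 6.57, 9.92 and 6.08 CPM at S5, and in 1MWT between 1.45 and 1.93 CPM at S1 and at 7.12, 4.55 and 8.77 CPM at S5. The member was thus higher at S5 in every library of 1mlpa and 1MWT, while in 3mlpa both stages overlapped. The difference of log2 changes was -3.39 (SE 0.72, adjusted p 0.00477). The call was lost in 7 of the 9 fits that left out a replicate number of 1 line, with adjusted p of 0.0123 to 0.0235, and with only the compared groups fitted (adjusted p 0.0402). The difference ran from -4.40 to -2.66 over those 9 fits. It was -2.66 without replicate 3 of 3mlpa (0.843% of all genes called in that fit), and -2.81 with an adjusted p of 0.00582 without its S5 library alone (1.09% of all genes called).

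**Figure D4:**
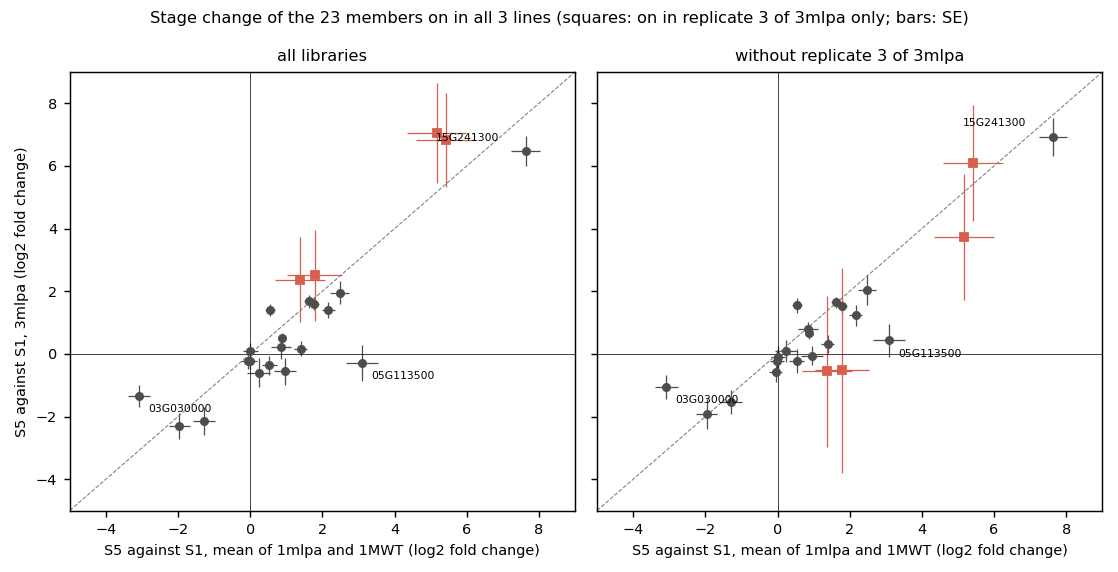
Log2 fold change from S1 to S5 in 3mlpa (vertical) against that in the mean of 1mlpa and 1MWT (horizontal) for the 23 members on in all 3 lines, with bars for SE, from all libraries (left) and with replicate 3 of 3mlpa left out of the vertical values (right). Members scatter about the dashed line of equal change, and Glyma.05G113500 lies below it, at 3.09 horizontally and at -0.29 vertically on the left.

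The members matched varied gene products. Of the 45, 37 are listed in the annotation tables and 28 have an Arabidopsis match. Those are the authors' tables of differential expression, which list 13166 of the 56044 genes. The shares of annotated genes below are thus shares of genes in those tables, not of all genes. Of the 29 with any annotation text, 4 (13.8%) matched words for transporters and channels, beside 5.68% of 12000 annotated genes. These were Glyma.06G200800, Glyma.10G119600, Glyma.U041300 and, through the word ATPase, the AAA-type ATPase Glyma.13G066100, which is no known transporter. DIT2.1-like Glyma.13G086700 is a transporter that these words missed. Ubiquitin and protease words matched 4 (13.8% beside 8.36%), of which only Glyma.04G140100 and Glyma.14G213700 are described as a ligase or a proteinase. Words for methyltransferases, glycosyltransferases, cytochrome P450 and related enzymes matched 4 (13.8% beside 4.76%), of which Glyma.20G213600 is described as such an enzyme, and words for calcium signalling matched 1 (Glyma.02G186900). Words for transcription factors matched 1 (3.45% beside 10.7%), the bHLH093-like Glyma.02G252400, and words for kinases matched 1 (3.45% beside 4.82%), the CIPK25-like Glyma.18G103900. Words for ribosomes, translation and RNA matched 2 (6.90% beside 1.68%), Glyma.10G175400 and Glyma.17G002900, an RNA-binding protein. Transposon words matched 0, beside 0.242%, and disease resistance words other than NBS matched 0, beside 2.61%. With 29 genes these shares rest on few members and are given as a description.

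Gene order was read from the gene identifiers, which carry the chromosome. Chromosome 13 held 8 members, chromosome 2 held 5, chromosomes 10 and 15 held 4 each, and 2 had identifiers of unplaced sequence. There were 5 pairs of members with at most 10 measured genes between them, 10 members in all. Adjacent pairs were Glyma.10G119600 with Glyma.10G119700, Glyma.13G086600 with Glyma.13G086700, Glyma.15G241300 with Glyma.15G241400, and Glyma.16G117900 with Glyma.16G118000, and in each both members had the same state in 1mlpa and 1MWT. In the remaining pair, with 1 gene between them, Glyma.03G017700 was on in both lines at 4.16 and 3.81 CPM, and Glyma.03G018000 was mixed at 0.114 and 0.136 CPM. No member lay within 100 measured genes of MIPS1, MRP-L or MRP-N. The nearest was Glyma.19G138400, 295 genes from MRP-L, and chromosome 11, which holds MIPS1, had 0 members.

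The genes beside the members mostly did not share their pattern. Among 212 genes at up to 5 places on either side, 9.91% differed at least 2-fold between 3mlpa and 3MWT, 15 higher and 6 lower in 3mlpa, beside 5.92% of 33265 genes of the same level. Of the 26 genes that met the reverse rule (on in 3MWT and nearly silent in 3mlpa), Glyma.14G213800 is adjacent to the member Glyma.14G213700, and both are annotated as a carboxyl-terminal proteinase. Means over 3mlpa, 3MWT, 1mlpa and 1MWT were 2.74, 0.0548, 3.27 and 3.11 CPM for Glyma.14G213700 and 0.0226, 2.56, 0.0400 and 0.0236 CPM for Glyma.14G213800. The 2 neighbours were thus on in opposite lines. How reads shared by similar copies were counted is not given in the sources used here, so the assignment of reads between both is uncertain. Glyma.03G031200, a cytochrome P450, met the reverse rule 10 genes from Glyma.03G030000, at 0.0193, 4.88, 0.0105 and 0.0153 CPM.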

How the data were processed

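Single-end reads (100 bases) were aligned by the authors to the Williams 82 genome using STAR 2.4.2, and they deposited whole-number counts per gene from featureCounts 1.4.6, together with RPKM values, which were used here only to compare levels between genes. The deposited log2 fold changes of the authors' own comparisons were not used. How strand and multiply mapped reads were counted is not given in the sources used here. Levels are the count divided by the library total, as CPM. Counts of 60 libraries were fitted with edgeR 4.0.16 in R 4.3.3 (TMM, filterByExpr, quasi-likelihood), with 1 mean for each of 20 groups and Benjamini-Hochberg adjustment over the 40517 genes tested. All 45 members passed the filter, which they could pass through 3mlpa alone. DESeq2 1.42.0 was an alternative, as were other filters, scaling, thresholds, a replicate block and libraries left out. In simulated data for the mean of 1mlpa against 1MWT over 39174 genes, 96% of changes of 1.5 in log2 were recovered. Members, gene lists and thresholds were chosen with earlier results of these data known.

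Named members are the 10 with the highest mean in 3mlpa, the 5 highest without counts in 3MWT, those beside each limit, the 5 largest stage changes in each direction, those in runs and those singled out in earlier work. Members of the calls in all 3 fits, Glyma.02G077300, Glyma.U028500, Glyma.13G138300, Glyma.14G213700 and the replicate 3 members were named after their values were seen. Omitting replicate 3 or the S5 library of 3mlpa was also chosen after seeing the data. Beyond triplicates nothing says that libraries came from separate plants, so p-values measure the spread between these libraries. Floors cover counting error only.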

Additional observations from a re-analysis of the deposited data

Results flagged for a closer look

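The change from S1 to S5 of Glyma.05G113500, a gene without an annotation match, differed between 3mlpa and the mean of 1mlpa and 1MWT by -3.39 in log2 (edgeR interaction test, adjusted p 0.00477). It was higher at S5 in all 6 libraries of 1mlpa and 1MWT than in their 6 libraries at S1, and the 3mlpa replicates overlapped between both stages. Among its 3 libraries of 3mlpa at S5, replicate 3 was at 0.17 CPM. The difference was -2.81 without that library. The call was lost in 7 of the 9 fits that left out a replicate number of 1 line, and with only the compared groups fitted.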

How the results depend on the processing

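Of 434 values under alternatives, 377 kept their direction and side of the threshold or stayed within 1.5 times the reported count. The rule gave 72 genes at 16-fold, 25 at 64-fold and 26 at a mean of 2 CPM. Leaving out 1 library gave 40 to 70 genes, the highest without 3MWT S1 replicate 2, and leaving out a replicate number gave 37 to 68, the highest without 3MWT replicate 2. Members without overlap of libraries rose from 20 to 32 without 3mlpa replicate 3 or its S5 library. Between 1mlpa and 1MWT 0 to 2 members were called with a replicate left out. For the mean over stages the fewest genes called were 0 higher and 1 lower of 40980, without 1mlpa replicate 2. The most were 6 higher and 66 lower of 40787, without 3mlpa replicate 3. From S1 to S5 in 3mlpa, 15 were called with only the compared groups fitted, against 4415 higher and 6423 lower of 37341 genes. Without 3mlpa S5 replicate 3, 15 were called, against 29.8% of all genes. With a replicate left out 17 to 25 were called, against 29.7% of all genes without 3mlpa replicate 3. The lowest share of all genes was 5072 higher and 6668 lower of 40781, without 3mlpa replicate 2. The highest was 5254 higher and 7772 lower of 40888, without 1mlpa replicate 3. The fitted change of Glyma.05G218100 reversed to -4.41 without 3mlpa S5 replicate 3, which left it 0 counts at S5. It was 6.39 to 6.47 with a replicate left out, other than 3mlpa replicate 3, without which it could not be fitted. Over any stage, 14 were called with only the compared groups, against 12219 of 38694 genes. With a replicate left out 14 to 22 were called, against 33.9% of all genes without 3mlpa replicate 3. Here the share of all genes ran from 12716 of 40781 (without 3mlpa replicate 2) to 14769 of 41026 (without 1MWT replicate 3). For the interaction, 0 were called with only the compared groups, against 53 positive and 134 negative of 39374 genes. DESeq2 called 2, against 252 positive and 218 negative of 52025 genes. Without 3mlpa S5 replicate 3, 2 were called, against 1.09% of all genes, and 0 to 2 were called with a replicate left out. In those fits the fewest genes called were 48 positive and 65 negative of 40781, without 3mlpa replicate 2. The most were 232 positive and 112 negative of 40787, without 3mlpa replicate 3. The cause of these changes was not tested. Replicate numbers were not used to pair samples in the main fit. The labels name no shared batch, and same-numbered deviations correlated at -0.249 to 0.480. In 3mlpa, however, the libraries of replicate 3 shared genes that were on over the stages, so a link by replicate number is not excluded there. With the replicate block 26 members were called from S1 to S5 in 3mlpa, against 5221 higher and 7799 lower of 40517 genes. It called 1 member in the interaction, against 152 positive and 120 negative of all genes. Depth limits the precision of members near 1 CPM most.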
